A study of Mus musculus with 2 samples.

Results

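The genes described here are 10 genes of the antioxidant response and of metal binding: *Nfe2l2* and *Keap1*, which encode the transcription factor NRF2 and its repressor, the NRF2-linked enzyme genes *Nqo1*, *Hmox1*, *Gclc*, *Gclm*, *Txnrd1* and *Srxn1*, and the metallothionein genes *Mt1* and *Mt2*. They were picked by symbol, with no threshold on their measured values, and all 10 were found among the 21935 gene symbols of the expression files. The cells were R1 cells, a line of mouse embryonic stem (ES) cells, infected with a lentivirus for a short hairpin RNA against *Kdm5b* (shKdm5b), which encodes an H3K4 demethylase, or against luciferase (shLuc, the control), and selected with puromycin. Both lines had been kept on irradiated mouse embryonic fibroblast feeders with LIF, the cytokine that sustains self-renewal, and were then cultured without LIF for 72 h, for which the sample labels name low-attachment dishes and the methods of the study name gelatin-coated dishes as well. Polyadenylated RNA was sequenced from 1 library per condition, with a depth of 78172698 reads for shLuc and 72702698 reads for shKdm5b. *Kdm5b* itself had a level of 104 RPKM (reads normalized to transcript length and sequencing depth) in shLuc and 3.01 RPKM in shKdm5b, 2.88% of the control level. Neither condition has a replicate, so an effect of the hairpin and a difference between these cultures cannot be told apart, no difference could be tested against the spread between replicates, and the 95% intervals given, exact Clopper-Pearson intervals unless another method is named, cover counting error only.

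NRF2 binds DNA together with a small MAF protein at the antioxidant response element and activates genes for glutathione synthesis, thioredoxin reduction and the removal of quinones and heme. In unstressed cells KEAP1 hands NRF2 to a CUL3-RBX1 ubiquitin ligase for degradation, and oxidants or electrophiles that modify KEAP1 let NRF2 accumulate, so that much of the control is at the level of protein, which RNA-Seq does not measure. Metallothioneins are small cysteine-rich proteins that hold zinc and copper, and their genes are switched on by the zinc sensor MTF1 through metal response elements.

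The sequences upstream of *Mt1*, *Mt2*, *Gclm* and *Nfe2l2* are shown because these 4 genes were higher in the shKdm5b library and their upstream bases hold matches to at least 1 of these elements. They are the 250 bases before the transcription start in RefSeq on GRCm38.p6, written in the direction of transcription, at chr8:94178839-94179088 for *Mt1*, chr8:94172368-94172617 for *Mt2* and chr3:122245307-122245556 for *Gclm* on the plus strand, and at chr2:75704664-75704913 on the minus strand for *Nfe2l2*. Capitals mark matches, on either strand, to the core of the antioxidant response element (TGACNNNGC) or of the metal response element (TGCACNC or TGCGCNC).
Mt1: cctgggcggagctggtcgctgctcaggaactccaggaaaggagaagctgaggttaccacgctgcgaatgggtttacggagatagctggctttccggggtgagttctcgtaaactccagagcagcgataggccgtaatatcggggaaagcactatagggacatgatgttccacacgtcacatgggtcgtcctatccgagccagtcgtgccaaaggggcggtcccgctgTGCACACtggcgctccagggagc
Mt2: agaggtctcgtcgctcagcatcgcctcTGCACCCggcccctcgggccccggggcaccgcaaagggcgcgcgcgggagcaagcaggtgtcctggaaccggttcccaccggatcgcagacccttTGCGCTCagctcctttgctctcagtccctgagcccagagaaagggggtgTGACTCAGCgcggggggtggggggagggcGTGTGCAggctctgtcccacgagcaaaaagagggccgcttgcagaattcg
Gclm: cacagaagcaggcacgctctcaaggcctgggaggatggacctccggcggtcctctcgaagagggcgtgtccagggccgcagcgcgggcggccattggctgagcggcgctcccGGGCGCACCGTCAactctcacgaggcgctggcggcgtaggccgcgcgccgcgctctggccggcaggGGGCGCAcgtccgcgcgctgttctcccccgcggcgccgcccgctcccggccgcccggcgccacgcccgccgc
Nfe2l2: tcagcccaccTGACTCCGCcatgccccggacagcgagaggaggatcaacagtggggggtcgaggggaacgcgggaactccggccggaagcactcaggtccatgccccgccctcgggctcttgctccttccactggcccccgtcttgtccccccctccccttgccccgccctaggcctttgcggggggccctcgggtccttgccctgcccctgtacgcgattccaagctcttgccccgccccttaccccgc
The *Mt1* sequence held 1 match to the metal response core, 23 bases before the start. The *Mt2* sequence held 3 such matches, at 223, 128 and 50 bases before the start, and 1 match to the antioxidant response core at 79 bases. In the *Gclm* sequence the first run of capitals is a metal response match at 138 bases that overlaps the single antioxidant response match at 134 bases, and the second run is another metal response match at 72 bases. Of 32851 RefSeq upstream sequences of this length, 10.2% held at least 1 antioxidant response core, 21.4% at least 1 metal response core and 1.26% at least 3 metal response cores. Such sequences were found for 8 of the 10 genes. The *Nfe2l2* sequence held 1 antioxidant response core, 240 bases before the start, as did 1 of 3 sequences of *Txnrd1*, the *Srxn1* sequence held 1 metal response core, and the letters of neither core were in those of *Keap1* and *Nqo1*. *Hmox1* and *Gclc* had no entry. Past the start, the RefSeq windows, each of 300 bases in all, held 2 further metal response cores in *Mt1*, 1 in *Mt2* and 1 in *Gclm*. There was also 1 antioxidant response core past the start of *Srxn1*. Matches outside these windows were not searched for. GENCODE M21 has other starts, chr8:94179082 for *Mt1* and chr8:94172664 for *Mt2*, so the counts and distances depend on the start used. A match is a description of the letters, and binding was not measured.

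All 10 genes were expressed above an RPKM of 1 in both libraries. Genes were counted as higher or lower when the fold change exceeded 1.5 on the log2(RPKM + 0.1) scale and the RPKM exceeded 1 in at least 1 library. By this rule *Mt1*, *Mt2*, *Nfe2l2* and *Gclm* were higher in the shKdm5b library, *Keap1* and *Nqo1* were lower, and *Hmox1*, *Gclc*, *Txnrd1* and *Srxn1* lay within 1.5-fold. Of the 11804 genes with an RPKM above 1, 16.3% were higher and 32.0% lower by the same rule, and 4 higher (40%) and 2 lower (20%) of 10 genes are to be read against these shares. The median log2 ratio was 0.25 for the 10 genes and -0.21 for all 11804 genes. The 10 genes had 425 to 40233 reads per library, and the widest counting interval of a log2 ratio spanned 0.345.

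**Figure D1:**
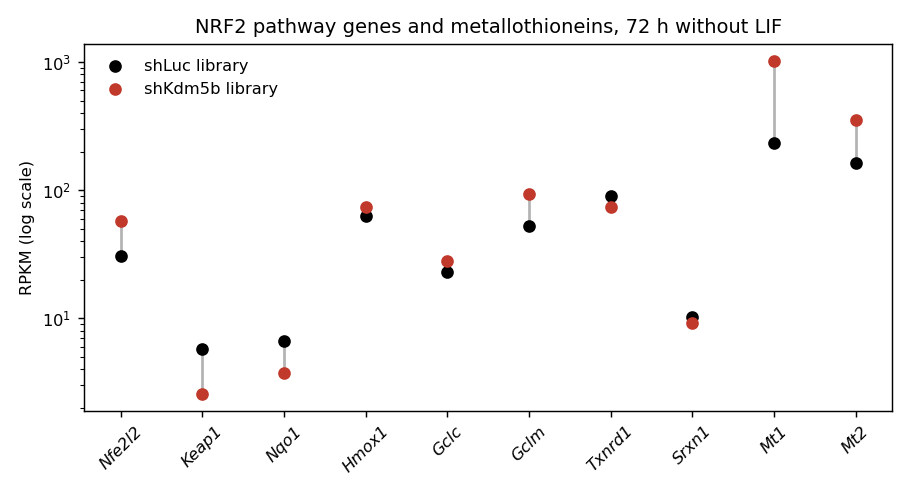
RPKM on a log scale of the 10 genes in the shLuc and the shKdm5b library, 1 point per library, with a line joining the points of a gene. The metallothionein gene *Mt1* reaches the highest level, 1025 RPKM in shKdm5b, and *Keap1* the lowest, 2.55 RPKM in shKdm5b.

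The regulators differed in opposite directions, although the lower level of *Keap1* came within 1.5-fold once the GC content of transcripts was corrected for, as given further on. *Nfe2l2* had an RPKM of 30.6 in shLuc (5902 reads) and 57.4 in shKdm5b (10305 reads), a log2 ratio of 0.91 (0.86 to 0.96), or 1.87-fold higher. *Keap1* had an RPKM of 5.76 in shLuc (1419 reads) and 2.55 in shKdm5b (585 reads), a log2 ratio of -1.14 (-1.32 to -1.03), or 44.3% of the control level. The transcript of the activator was thus the more abundant of the pair in both libraries, and the RPKM ratio of *Nfe2l2* to *Keap1*, as deposited, was 5.31 in shLuc and 22.5 in shKdm5b. After GC correction the pair differed less, with log2 ratios of 0.87 for *Nfe2l2* and -0.35 for *Keap1*. With length added to the correction they were 0.89 and -0.25. *Nfe2l2* lies at chr2:75675513-75704641 and *Keap1* at chr9:21229730-21239361 in GENCODE M21 on GRCm38, the annotation used for all gene positions given here. The 4 transcript entries of *Keap1* gave log2 ratios from -1.14 to -1.10. Among all 11804 genes, 958 had a larger log2 ratio than *Nfe2l2* and 1480 a lower one than *Keap1*.

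The enzymes that act on quinones and heme differed from one another. *Nqo1*, a quinone reductase often used as a readout of NRF2 activity, had an RPKM of 6.60 in shLuc (801 reads) and 3.77 in shKdm5b (425 reads), a log2 ratio of -0.79 (-0.98 to -0.64). Its relative *Nqo2*, which lies within 1.5-fold, had an RPKM of 6.13 and 7.91 in the same order, so that the RPKM ratio of *Nqo1* to *Nqo2* was 1.08 in shLuc and 0.476 in shKdm5b. *Hmox1*, the inducible heme oxygenase, had an RPKM of 63.4 in shLuc (7809 reads) and 74.0 in shKdm5b (8475 reads), a log2 ratio of 0.22 (0.18 to 0.27). *Hmox2*, the constitutive heme oxygenase, had an RPKM of 20.0 and 18.1. *Nqo1* lies at chr8:107388225-107403206 and *Hmox1* at chr8:75093621-75100589. *Nqo1* was thus lower in the library in which *Nfe2l2* was higher, and the interval of *Hmox1* did not reach 0 on the log2 scale or 1.5-fold.

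The subunits of glutamate-cysteine ligase, which makes the first intermediate of glutathione, differed unequally in RPKM as deposited. *Gclm*, the modifier subunit, had an RPKM of 52.7 in shLuc (6051 reads) and 93.3 in shKdm5b (9972 reads), a log2 ratio of 0.82 (0.78 to 0.87), or 1.77-fold higher. *Gclc*, the catalytic subunit, had an RPKM of 23.1 in shLuc (4180 reads) and 28.1 in shKdm5b (4719 reads), a log2 ratio of 0.28 (0.22 to 0.34). *Gclm* lies at chr3:122245557-122270732 and *Gclc* at chr9:77754535-77794485. The modifier subunit had the higher RPKM in both libraries, and the RPKM ratio of *Gclm* to *Gclc* was 2.28 in shLuc and 3.33 in shKdm5b, a log2 difference of 0.55 (0.47 to 0.62, counting error by a normal approximation). This difference was smaller after GC correction, with log2 ratios of 0.46 for *Gclm* and 0.31 for *Gclc*. It did not hold after GC and length correction, with log2 ratios of 0.26 and 0.31.

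The thioredoxin-linked enzymes were within 1.5-fold. *Txnrd1*, the cytosolic thioredoxin reductase, had an RPKM of 89.3 in shLuc (23108 reads) and 73.7 in shKdm5b (17739 reads), a log2 ratio of -0.28 (-0.31 to -0.25), close to the median of all genes. *Srxn1*, which repairs overoxidized peroxiredoxins, had an RPKM of 10.2 in shLuc (2061 reads) and 9.12 in shKdm5b (1712 reads), a log2 ratio of -0.16 (-0.26 to -0.07). *Txnrd1* lies at chr10:82833951-82897712 and *Srxn1* at chr2:152105516-152111376. The substrate of *Txnrd1* behaved otherwise. *Txn1*, cytosolic thioredoxin, had an RPKM of 76.7 in shLuc and 244 in shKdm5b, and the RPKM ratio of *Txnrd1* to *Txn1* was 1.16 in shLuc and 0.302 in shKdm5b.

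The metallothionein genes were the most abundant of the 10 and had the highest log2 ratios among them in RPKM as deposited. The log2 ratio of *Keap1*, -1.14, was larger in size than that of *Mt2*. After GC and length correction *Nfe2l2*, at 0.89, was above *Mt2*, at 0.85. *Mt1* had an RPKM of 233 in shLuc (9825 reads) and 1025 in shKdm5b (40233 reads), a log2 ratio of 2.14 (2.11 to 2.17), or 4.40-fold higher. *Mt2* had an RPKM of 164 in shLuc (7131 reads) and 352 in shKdm5b (14222 reads), a log2 ratio of 1.10 (1.06 to 1.14), or 2.14-fold higher. By RPKM, *Mt1* ranked 123 of 21935 symbols in shLuc and 11 in shKdm5b, and *Mt2* ranked 199 and 100. Of the 11804 genes, 15 had a larger log2 ratio than *Mt1* and 564 a larger one than *Mt2*. Both genes together had 16956 reads in shLuc and 54455 in shKdm5b. The difference was unequal between the neighbours, with an RPKM ratio of *Mt1* to *Mt2* of 1.42 in shLuc and 2.91 in shKdm5b. This is a log2 difference of 1.04 (0.99 to 1.09, counting error by a normal approximation).

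The metallothionein genes lie side by side on chromosome 8, with *Mt4* at chr8:94137197-94139031, *Mt3* at chr8:94152607-94154146, *Mt2* at chr8:94172664-94173568 and *Mt1* at chr8:94179082-94180327. The submitters' processing notes name mm8 for the reads, and these coordinates only describe where the genes are. *Mt3*, a form best known from brain, had an RPKM of 3.22 in shLuc (135 reads) and 4.11 in shKdm5b (160 reads), a log2 ratio of 0.34 (0.01 to 0.69) that was 1.26 after GC correction and 0.40 after GC and length correction. *Mt4*, best known from squamous epithelium, had 0 reads in shLuc, which allows an RPKM of up to 0.0981, and 6 reads in shKdm5b. Both relatives were far below *Mt1* and *Mt2* in RPKM. *Mtf1*, which encodes the zinc-sensing activator of these genes, had an RPKM of 3.01 in shLuc and 3.08 in shKdm5b, a log2 ratio of 0.03 (-0.07 to 0.13).

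**Figure D2:**
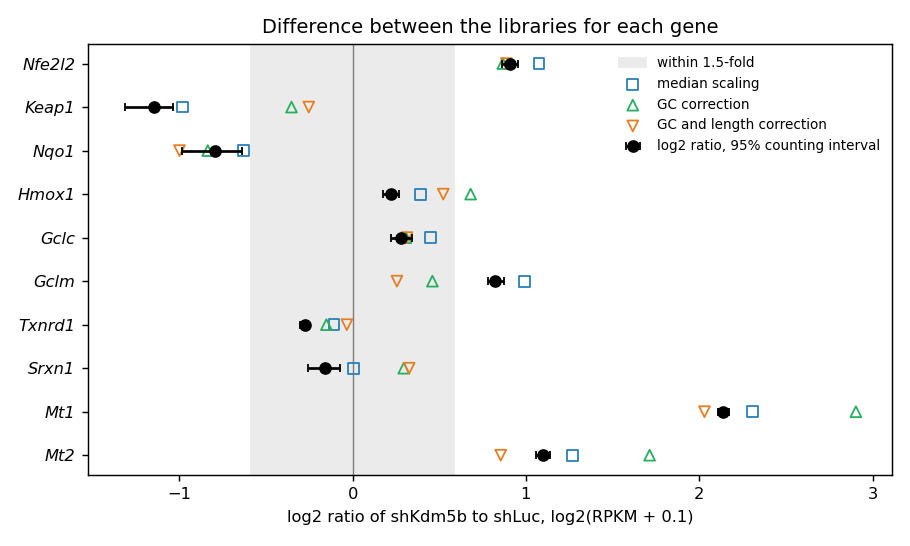
Log2 ratio of shKdm5b to shLuc on the log2(RPKM + 0.1) scale for the 10 genes. Black points are the reported values with 95% counting intervals, which were made from reads without the added 0.1. Open symbols are the values after median scaling, GC correction or GC and length correction, and the grey band marks differences within 1.5-fold. *Mt1* lies to the right of the band under every setting, at 2.03 or more, whereas *Keap1* and *Gclm* enter the band after either correction.

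The GC content of the transcripts moved with the log2 ratios. Across 11535 genes the log2 ratio had a Spearman correlation of -0.53 with the GC content of the transcript, a description of these libraries. After subtraction of this trend, 19.1% of all tested genes were higher and 17.9% lower. *Keap1*, with a GC content of 59.0%, then had a log2 ratio of -0.35, and *Gclm*, with 42.1%, a log2 ratio of 0.46, both within 1.5-fold. *Gclc* at 0.31 and *Txnrd1* at -0.15 remained within 1.5-fold. *Hmox1* then had a log2 ratio of 0.68, past 1.5-fold, and *Srxn1* one of 0.30, with the opposite sign to its reported value. *Nfe2l2* at 0.87, *Nqo1* at -0.84, *Mt1* at 2.90 and *Mt2* at 1.71 stayed past 1.5-fold. With transcript length added to the correction, 15.7% of all tested genes were higher and 16.5% lower, beside 3 higher and 1 lower among the 10. *Mt1*, 540 bases long, then had a log2 ratio of 2.03 and *Mt2*, 556 bases long, one of 0.85, while *Keap1* was at -0.25. *Hmox1*, at 0.52, was then back within 1.5-fold. Scaling both libraries to a median log2 ratio of 0, after which 22.1% of all tested genes were higher and 25.3% lower, raised the log2 ratios by 0.17, or slightly less where the RPKM was low. This left the same 4 genes higher and the same 2 lower, and *Srxn1* came to 0.01. With a fold threshold of 2 in place of 1.5, 6.27% of all genes were higher and 16.5% lower, and *Mt1* and *Mt2* were higher and *Keap1* lower. With an RPKM threshold of 11 in place of 1, 21.8% of all tested genes were higher and 25.8% lower. *Keap1*, *Nqo1* and *Srxn1* were below that threshold in both libraries and so were not tested. Of the other genes of the 10, *Mt1*, *Mt2*, *Nfe2l2* and *Gclm* were higher and 0 were lower. When edgeR's exact test at an assumed dispersion of 0.04 was required in addition, 0.94% of all genes were higher and 1.47% lower, and of the 10 genes *Mt1* alone passed, which compares these libraries and not the conditions.

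**Figure D3:**
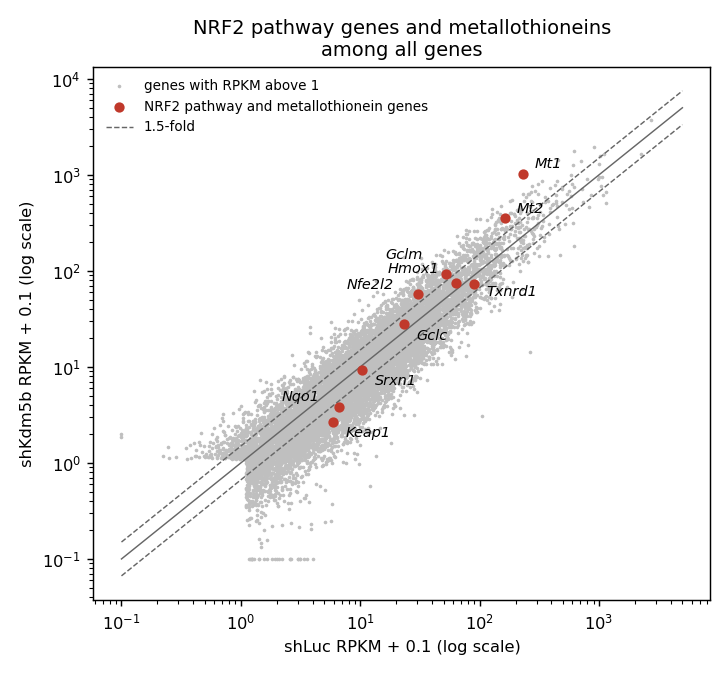
RPKM + 0.1 of all genes with an RPKM above 1 in at least 1 library, shLuc on the x axis and shKdm5b on the y axis, both on log scales. Grey points are genes, red points the 10 genes described here, the solid line equality and the dashed lines 1.5-fold. *Mt1*, at 233 and 1025 RPKM, stands farthest from equality among the red points.

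The wider pathways held 110 further genes in 6 lists, of which 98 had an RPKM above 1 in at least 1 library. Of these 98, 19 (19.4%) were higher and 20 (20.4%) lower in the shKdm5b library, beside 16.3% and 32.0% of all genes, and their median log2 ratio was 0.05. After median scaling the counts were 26 higher and 17 lower, beside 22.1% and 25.3% of all tested genes. After GC correction they were 27 higher and 9 lower, beside 19.1% and 17.9%. With length added to the correction they were 18 higher and 12 lower, beside 15.7% and 16.5%. The counts of each list below are to be read against the same shares. The lists thus held genes with differences in both directions, and the genes named below are those with the largest in each.

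Among the partners of NRF2 and the factors that turn it over, 3 of 11 tested genes were higher and 2 lower, with a median log2 ratio of 0.33. *Cul3*, the scaffold of the ligase that degrades NRF2, had an RPKM of 47 in shLuc and 82.8 in shKdm5b, a log2 ratio of 0.81. *Rbx1*, the RING subunit of that ligase, had an RPKM of 24.8 and 44.0, a log2 ratio of 0.83. *Nfe2l3*, an NRF2 relative, had an RPKM of 0.71 and 1.76, a log2 ratio of 1.19. The ligase scaffold was higher in the same library as *Nfe2l2*, and the RPKM ratio of *Nfe2l2* to *Cul3*, as deposited, was 0.650 in shLuc and 0.693 in shKdm5b. After GC correction the pair differed more, with log2 ratios of 0.87 for *Nfe2l2* and 0.25 for *Cul3*. With length added to the correction they were 0.89 and 0.30. *Nfe2l1*, the relative that governs proteasome genes, had an RPKM of 46.3 and 17.7, a log2 ratio of -1.38. *Mafg*, a small MAF partner of NRF2, had an RPKM of 17.8 and 9.87, a log2 ratio of -0.84. *Cul3* and *Mafg* lay within 1.5-fold after GC correction, when 4 genes of the list were higher and 1 lower.

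Of the glutathione genes, 10 of 30 tested were higher and 5 lower, with a median log2 ratio of 0.08. *Slc7a11*, the cystine importer that feeds glutathione synthesis and a familiar NRF2 target, had an RPKM of 13.8 in shLuc and 3.30 in shKdm5b, a log2 ratio of -2.03, the lowest of the list. *Chac1*, which degrades glutathione, had an RPKM of 8.29 and 2.92, a log2 ratio of -1.47. *Gpx1*, the cytosolic glutathione peroxidase, had an RPKM of 119 and 60.2, a log2 ratio of -0.98. These 3 had the lowest log2 ratios of the list, and the next 3 the highest. *Gpx8*, a peroxidase of the endoplasmic reticulum, had an RPKM of 2.20 and 6.66, a log2 ratio of 1.55. *Ggct*, an enzyme of the gamma-glutamyl cycle, had an RPKM of 6.45 and 16.2, a log2 ratio of 1.31. *Mgst1*, a membrane-bound glutathione transferase, had an RPKM of 4.87 and 11.3, a log2 ratio of 1.19. After GC correction 10 genes of the list were higher and 3 lower. *Gpx1* lay within 1.5-fold after GC correction but was lower again, at -0.72, after GC and length correction. *Mgst1* lay within 1.5-fold after GC and length correction.

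Of the 14 thioredoxin and peroxiredoxin genes, 2 were higher and 4 lower, with a median log2 ratio of -0.28. *Txn1*, given above, had the highest log2 ratio of the list, 1.67. *Prdx1*, an abundant peroxiredoxin, had an RPKM of 491 in shLuc and 754 in shKdm5b, a log2 ratio of 0.62. The reductases other than *Txnrd1* were lower. *Txnrd2*, the mitochondrial form, had an RPKM of 1.56 and 0.64, a log2 ratio of -1.16. *Txnrd3*, the form best known from testis, had an RPKM of 3.16 and 1.41, a log2 ratio of -1.11. *Sesn2*, a stress-induced sestrin, had an RPKM of 30.5 and 12.9, a log2 ratio of -1.24. *Prdx1* and *Sesn2* lay within 1.5-fold after GC correction, when 2 genes of the list were higher, 2 were lower and its median log2 ratio was 0.20. With length added to the correction 1 gene of the list was higher, 3 were lower and its median log2 ratio was -0.10.

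Of the 6 genes that supply NADPH, 1 was higher and 2 lower, with a median log2 ratio of -0.27. *Me1*, malic enzyme, had an RPKM of 7.40 in shLuc and 16.0 in shKdm5b, a log2 ratio of 1.10. *Pgd* and *Taldo1* of the pentose phosphate pathway were lower. *Pgd* had an RPKM of 50.4 and 25.5, a log2 ratio of -0.98, and *Taldo1* had one of 78.7 and 44.6, a log2 ratio of -0.82. Both lay within 1.5-fold after GC correction, when 1 gene of the list was higher and 0 were lower. With length added to the correction *Taldo1* was lower again, at -0.63, and *Pgd* stayed within 1.5-fold.

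Of 16 tested genes for heme, iron and other NRF2-linked enzymes, 2 were higher and 1 lower, with a median log2 ratio of 0.20. *Fth1*, the ferritin heavy chain, had an RPKM of 276 in shLuc and 523 in shKdm5b, a log2 ratio of 0.92, and the RPKM ratio of *Fth1* to the light chain *Ftl1* was 0.623 and 1.12. *Ephx1*, an epoxide hydrolase, had an RPKM of 2.74 and 4.72, a log2 ratio of 0.76. *Abcb6*, a porphyrin transporter, had an RPKM of 4.89 and 2.29, a log2 ratio of -1.06, and lay within 1.5-fold after GC correction. The remaining 13 tested genes of this list were within 1.5-fold. After GC correction 7 genes of the list were higher and 0 lower, beside 19.1% and 17.9% of all tested genes. With length added to the correction 3 were higher and 0 lower, beside 15.7% and 16.5%. After median scaling 4 were higher and 1 lower, beside 22.1% and 25.3%.

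Of 21 tested genes that handle zinc and copper, 1 was higher and 6 were lower, with a median log2 ratio of -0.09. After GC correction the counts were 3 higher and 3 lower, and after median scaling 3 higher and 4 lower, with a median of 0.07. *Atox1*, the copper chaperone of the secretory pathway, had an RPKM of 77.8 in shLuc and 147 in shKdm5b, a log2 ratio of 0.92. *Slc39a7*, which releases zinc from the endoplasmic reticulum, had an RPKM of 52.9 and 20.6, a log2 ratio of -1.35. *Slc39a14*, a zinc and iron importer, had an RPKM of 16.1 and 6.54, a log2 ratio of -1.29. *Ccs*, the copper chaperone of superoxide dismutase, was also among the lower genes, with an RPKM of 11.4 and 5.19, a log2 ratio of -1.12. *Slc39a7* and *Ccs* lay within 1.5-fold after GC correction. With length added to the correction *Ccs* was lower again, at -0.89, and *Slc39a7* stayed within 1.5-fold.

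**Figure D4:**
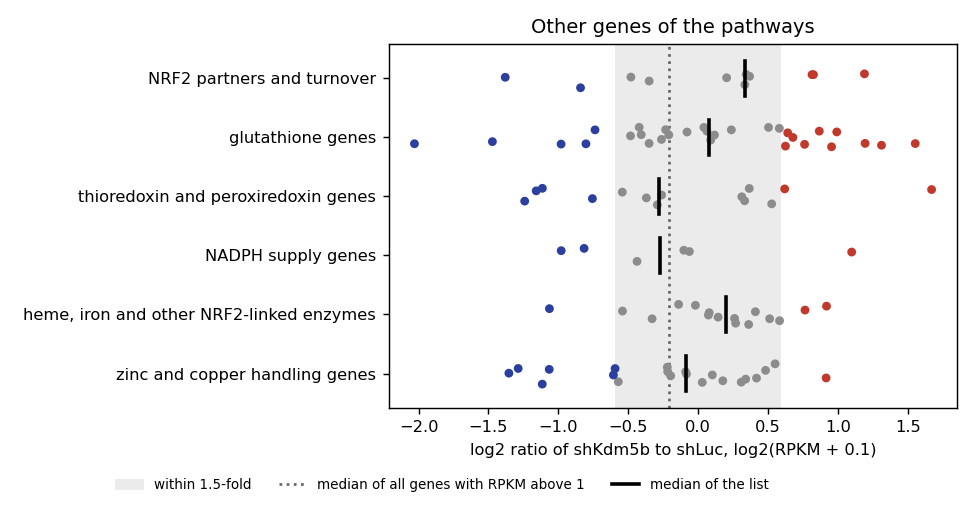
Log2 ratio of shKdm5b to shLuc on the log2(RPKM + 0.1) scale for the tested genes of the 6 lists, 1 point per gene, red for higher, blue for lower and grey for within 1.5-fold. Black bars mark the median of each list, from -0.28 to 0.33, and the dotted line the median of all genes, -0.21.

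Markers of other cells that the cultures could hold were read beside these results. Of 20 fibroblast markers, 15 were below an RPKM of 1 in both libraries. Of the 5 tested, 3 were lower in shKdm5b and 0 higher. The summed RPKM was 12.2 in shLuc and 11.1 in shKdm5b, with *Thy1* the most abundant at 4.08 and 4.59. *Acta2*, the next in shLuc, was at 1.91 and 1.18. Fibroblast markers below an RPKM of 1 in both libraries went both ways. *Col1a1* was at 0.474 and 0.395 and *Postn* at 3 and 0 reads, but *Dcn* was at 17 and 43 reads and *Pdgfrb* at 212 and 322 reads. Visceral endoderm markers moved with the libraries, since 12 of 13 tested of 17 listed were lower in shKdm5b, and their summed RPKM was 49.5 in shLuc and 8.09 in shKdm5b. *Dab2* of that list had an RPKM of 18.5 and 3.15, and *Cubn* one of 5.56 and 0.149. Of 10 macrophage markers 9 were below an RPKM of 1 in both libraries, *Aif1* had 0 reads in each, and *Cd68*, also a lysosomal gene, had an RPKM of 3.73 and 22.4. Of 10 tested ES cell markers 2 were higher and 2 lower, with a summed RPKM of 3009 and 3109, led by *Dppa5a* at 1096 and 1651 and *Pou5f1* at 619 and 182. In bulk RNA, fewer cells of a type and less RNA per cell cannot be told apart. The part of these cell types in the differences of the 10 genes was not tested.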

How the data were processed

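RNA-Seq of polyadenylated RNA was done on 1 shLuc and 1 shKdm5b library. For each RefSeq transcript entry the authors deposited a count of reads in whole numbers, the length, and an RPKM value made from both and the depth. The submitters' processing notes name CASAVA 1.0, Bowtie 0.12.7 and mm8, with no role given. The counting program and its use of strand are not given in the sources used here. Deposited read positions were used only for their number, and a further column of whole numbers with no stated meaning was not used.

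The 27405 entries were reduced to 21935 symbols by keeping, for a symbol with several, the entry whose mean RPKM was highest, and log2 ratios were taken on log2(RPKM + 0.1). Intervals at 95% are exact Clopper-Pearson intervals on reads, without the added 0.1, and cover counting error only. Those of a log2 difference between paired genes are normal approximations. With 1 library each, no difference could be tested against replicates. As an alternative, edgeR 4.0.16 (R 4.3.3) compared the counts of these libraries at an assumed dispersion of 0 or 0.04 with an FDR threshold of 0.001. GC and length trends were fitted by lowess (fraction 0.3, statsmodels 0.14.6, run with SciPy 1.17.1, NumPy 2.4.6 and pandas 2.3.3 under Python 3.11.15). GC content was taken from GRCm38 transcripts and length from the deposited entries. The scripts were tested on simulated data.

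The genes, lists, thresholds and alternatives were chosen with earlier results of these data known. The text names the 10 genes, *Kdm5b*, near relatives and *Mtf1*, up to 3 genes that were most higher and 3 most lower past the thresholds in each list, and leading markers. Other markers were named after their values were seen. Reads shared with near-identical copies, such as *Gstp1* and *Gstp2* or the pseudogenes of *Prdx1* and *Fth1*, were not tested.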

Additional observations from a re-analysis of the deposited data

How the results depend on the processing

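Across 12 alternatives, *Mt1* stayed past the thresholds in each and *Gclc*, *Txnrd1* and *Srxn1* in none. Both scalings, both pseudocounts and the sum of all entries of a symbol left all 10 calls in place. *Keap1*, *Nqo1* and *Srxn1* were below an RPKM of 11 in both libraries and so were not tested at that threshold. Of the other genes of the 10, 0 were then lower, beside 25.8% of tested genes. With a fold threshold of 2, 2 of the 10 genes were higher and 1 lower, beside 6.27% and 16.5% of all tested genes. Of the 98 further genes 6 were higher and 11 lower at that threshold. With edgeR's exact test at an assumed dispersion of 0.04, 1 of the 10 genes was higher and 0 were lower. Of the 98 further genes 1 was higher and 1 lower, beside 0.94% higher and 1.47% lower of all tested genes. After GC correction 1 of the 10 genes and 9 of the further genes were lower, with 4 and 27 higher. Of all tested genes 17.9% were then lower and 19.1% higher. After GC and length correction 1 and 12 were lower, with 3 and 18 higher, beside 16.5% lower and 15.7% higher of all tested genes. Of the 10 genes and the genes named from the 6 pathway lists, none that was past the thresholds changed sign under a scaling, a pseudocount or a correction, which was not computed for the other genes named. No paired analysis was possible because shLuc and shKdm5b are single libraries, which also means that there was no replicate to leave out. The 10 genes had at least 425 reads per library, so that counting error is small beside their differences past 1.5-fold, but the spread between cultures is unknown.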

Other observations

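Selenoproteins, among them the thioredoxin reductases and several glutathione peroxidases, were read as a further group that was chosen after values had been seen. Of 24 selenoprotein and selenium-use genes, 20 had an RPKM above 1 in at least 1 library, 5 (25.0%) were higher and 7 (35.0%) lower in shKdm5b, beside 16.3% and 32.0% of all genes, and the median log2 ratio was -0.21, equal to that of all genes. *Sephs2*, which makes the selenium donor for these proteins, had an RPKM of 84.3 in shLuc and 28.2 in shKdm5b, a log2 ratio of -1.58. *Gpx3*, the secreted glutathione peroxidase, had a log2 ratio of 0.99, and *Selk*, a selenoprotein of the endoplasmic reticulum, one of 1.35.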
